A study of Homo sapiens with 6 samples.

Results

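The genes described are 9 genes of antigen presentation through the major histocompatibility complex (MHC): B2M, HLA-B, HLA-C, HLA-E, TAP1 and TAP2 of the class I pathway, and CD74, HLA-DRA and CIITA of the class II pathway. They were taken as a named list, chosen with earlier results of these data known. Matching by Entrez Gene ID found 8 of the 9 among the 18795 genes of the deposited table. TAP1 was not analysed here. RNA came from HCC70 and from MDA-MB-468, which are human cell lines of basal-like breast cancer. Each was sorted by flow cytometry into K18+ cells, which stain for keratin 18, K18+K14+ cells, which also stain for keratin 14, and K18+Vim+ cells, which stain for keratin 18 together with vimentin. The culture medium was RPMI for HCC70 and Leibovitz L15 for MDA-MB-468, both with serum, so medium and line cannot be told apart. The labels give no drug, cytokine or genetic change, and all cells of both lines were methanol-fixed, permeabilised and antibody-stained before RNA was recovered with a kit. There was 1 library per line and population, 6 in all. An SD given below is the spread over 3 sorted populations of a line. A limma SE or p-value rests on the spread left after population and line are fitted, drawn towards that of all genes. None of these errors is a spread over repeat cultures.

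MHC class I molecules are made of a heavy chain, such as HLA-B or HLA-C, paired with beta-2-microglobulin, the product of B2M. They show peptides cut by the proteasome and carried into the endoplasmic reticulum by the TAP1 and TAP2 transporter to CD8 T cells, while HLA-E, a non-classical heavy chain, is read mainly by natural killer cells. MHC class II molecules are alpha and beta chain pairs such as HLA-DR, held by the invariant chain CD74 until they reach the endosome, and their genes are switched on by the coactivator CIITA. Most nucleated cells carry class I, whereas class II is mainly a feature of professional antigen-presenting cells and can be induced in epithelial cells by interferon gamma.

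Promoters of B2M, HLA-B, HLA-C, TAP2 and CD74 are printed because the factors named below are known to act through short motifs near the start of these genes and because B2M, HLA-B, TAP2 and CD74 passed the test between the lines and HLA-C, the closest relative of HLA-B here, did not. They are RefSeq sequences of build GRCh38.p14 on the strand of the gene, from 250 bases before to 50 bases after the start, and are the reference and not the alleles of these lines. Capitals mark matches to 5 motifs searched on both strands: the interferon-stimulated response element core TTTCNNTTT, the STAT site TTCNNNGAA, the X box start CCNAGNNAC, the Y box CCAAT and the kappaB site GGGATTCCC.
B2M, chr15:44711267-44711566, plus strand: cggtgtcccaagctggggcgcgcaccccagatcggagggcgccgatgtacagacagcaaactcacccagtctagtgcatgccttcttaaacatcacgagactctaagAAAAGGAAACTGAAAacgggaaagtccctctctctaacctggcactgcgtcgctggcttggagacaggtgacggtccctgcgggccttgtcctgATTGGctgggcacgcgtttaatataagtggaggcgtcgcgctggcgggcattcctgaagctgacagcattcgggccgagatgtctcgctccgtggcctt
HLA-B, chr6:31357130-31357429, minus strand: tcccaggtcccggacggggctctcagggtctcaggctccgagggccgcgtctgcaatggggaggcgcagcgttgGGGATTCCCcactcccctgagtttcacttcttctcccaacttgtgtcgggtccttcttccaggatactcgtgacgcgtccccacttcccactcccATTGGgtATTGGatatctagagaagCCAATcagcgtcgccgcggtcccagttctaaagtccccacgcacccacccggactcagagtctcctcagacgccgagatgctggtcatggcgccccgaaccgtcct
HLA-C, chr6:31272043-31272342, minus strand: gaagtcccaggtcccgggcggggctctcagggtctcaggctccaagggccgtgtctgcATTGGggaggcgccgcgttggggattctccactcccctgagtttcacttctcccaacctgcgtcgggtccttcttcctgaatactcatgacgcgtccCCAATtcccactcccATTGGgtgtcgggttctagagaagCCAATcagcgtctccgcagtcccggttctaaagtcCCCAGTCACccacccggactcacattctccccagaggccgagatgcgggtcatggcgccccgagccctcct
TAP2, chr6:32838690-32838989, minus strand: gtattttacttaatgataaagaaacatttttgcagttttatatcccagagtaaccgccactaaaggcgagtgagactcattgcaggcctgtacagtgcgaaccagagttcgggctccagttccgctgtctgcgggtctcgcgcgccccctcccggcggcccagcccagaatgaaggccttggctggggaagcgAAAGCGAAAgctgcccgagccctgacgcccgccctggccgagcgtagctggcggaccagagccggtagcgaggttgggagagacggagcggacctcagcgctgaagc
CD74, chr5:150412861-150413160, minus strand: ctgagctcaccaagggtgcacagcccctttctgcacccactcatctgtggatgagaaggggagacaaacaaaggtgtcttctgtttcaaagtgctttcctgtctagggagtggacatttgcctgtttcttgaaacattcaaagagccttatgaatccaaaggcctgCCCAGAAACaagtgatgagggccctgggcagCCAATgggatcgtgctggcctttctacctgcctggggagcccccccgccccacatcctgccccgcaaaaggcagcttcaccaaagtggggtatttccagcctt
The B2M promoter held 2 overlapping matches to the interferon-stimulated response element core, beginning at -143 and -137 from the start, and a Y box at -49. The HLA-B promoter held the kappaB letters at -176 and 3 Y boxes. The closest window of HLA-C to that kappaB site, GGGATTCTC at -172, differed by C8T, counted from 1 at the 5′ end of the site, although the 2 promoters were 90.9% identical over their aligned bases. The TAP2 promoter held an interferon-stimulated response element core at -57. The CD74 promoter held an X box start at -84 and a Y box at -53. Of 35116 promoters of the same length in the table, the interferon-stimulated core was in 10.5%, the STAT site in 7.66%, the X box start in 16.5%, the Y box in 34.6% and the kappaB letters in 0.384%. Apart from the kappaB letters these motifs are common, and a match describes letters and not a bound site. For HLA-E, HLA-DRA and CIITA no promoter is printed.

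Values are FPKM (fragments scaled to transcript length and to the mapped total of the library), with a floor of 0.1 in the deposited table, and the sequencing depth is unknown. Of the sort antigens, KRT14 was highest in both K18+K14+ libraries and VIM in both K18+Vim+ libraries. The MDA-MB-468 library labelled K18+Vim+ stood apart. Its KRT18 was 67.7 FPKM against 464 in MDA-MB-468 K18+, and its summed level of 8 epithelial markers was 240 FPKM, against 1505 to 4304 in the other 5 libraries. SMAD4 and RB1, which were at 0.269 to 0.566 FPKM in the other MDA-MB-468 libraries, stood at 5.19 and 6.68 FPKM in it. EGFR, at 153 and 70.7 FPKM in the other MDA-MB-468 libraries, was at 10.4 FPKM in it. Its correlation with MDA-MB-468 K18+ across genes was 0.828, below the 0.838 between MDA-MB-468 K18+ and HCC70 K18+, while the 3 HCC70 libraries correlated at 0.967 to 0.978 with each other. Whether this library came from MDA-MB-468 cells was not tested, and MDA-MB-468 below means the label. Fitted line differences are therefore also given without it. Of 16 markers of immune and professional antigen-presenting cells, 5 to 9 were at the floor in each library, and TYROBP and CD1C were at the floor in all. Their summed level without CD14 was 9.57 to 9.94 FPKM in HCC70 and 5.19 to 10.7 FPKM in MDA-MB-468. CD14 itself was at 51.4 to 138 FPKM in HCC70 and 2.44 to 50.7 FPKM in MDA-MB-468, and CD68 at 5.82 to 6.61 and 0.1 to 0.566 FPKM. Both were lower in MDA-MB-468 by limma (adjusted p 0.0421 for CD14 and 0.0141 for CD68, and 0.0125 and 0.000321 without that library), in the same direction as the class II genes, and their part in the results below was not tested. In bulk RNA, fewer cells that express a gene and less of its RNA per cell cannot be told apart.

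Of the 5 class I genes tested, B2M, HLA-B and TAP2 were lower in MDA-MB-468 than in HCC70, and HLA-C and HLA-E did not pass. B2M was the most abundant of all genes in HCC70 K18+ and HCC70 K18+Vim+, at 4577 and 3359 FPKM, and stood at 3035 FPKM in HCC70 K18+K14+. In MDA-MB-468 it was at 762 FPKM in K18+, 640 FPKM in K18+K14+ and 375 FPKM in the one labelled K18+Vim+. The ranges did not overlap, and the means were 3657 ± 813 and 592 ± 198 FPKM (SD, n = 3 populations each), a ratio of 6.17. The limma fit on log2(FPKM + 1) gave a difference of -2.66 ± 0.42 (SE) for MDA-MB-468 minus HCC70 (adjusted p = 0.0184). Without the MDA-MB-468 library labelled K18+Vim+ it was -2.41 ± 0.65 (adjusted p = 0.0188).

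HLA-B, a classical heavy chain, had nearly the same ratio between the lines with all 6 libraries. Without the MDA-MB-468 library labelled K18+Vim+ the ratios of means were 5.22 for B2M and 4.61 for HLA-B. HLA-B levels in HCC70 were 1311, 1270 and 1027 FPKM in K18+, K18+K14+ and K18+Vim+. In MDA-MB-468 they were 169 and 352 FPKM in K18+ and K18+K14+, and 68.7 FPKM in the one labelled K18+Vim+. The lowest HCC70 library was above the highest of MDA-MB-468, and the means were 1203 ± 153 and 197 ± 144 FPKM (SD, n = 3), a ratio of 6.11. The fitted difference was -2.89 ± 0.48 (SE, limma adjusted p = 0.0206) with all 6 libraries and -2.40 ± 0.56 (adjusted p = 0.0095) without the one that stood apart.

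**Figure D1:**
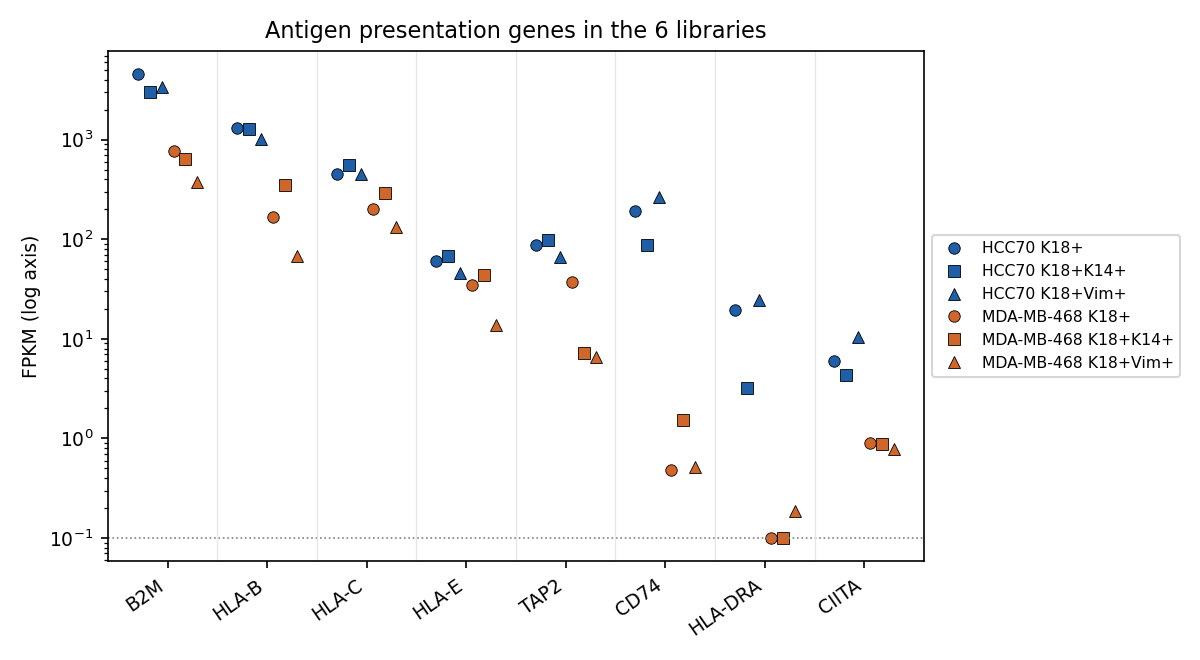
FPKM on a log axis of B2M, HLA-B, HLA-C, HLA-E, TAP2, CD74, HLA-DRA and CIITA in each of the 6 libraries (1 point per library). All 3 HCC70 points lie above all 3 MDA-MB-468 points for each gene, narrowly for HLA-E and most widely for CD74.

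The other class I heavy chains of the list, HLA-C and HLA-E, did not pass. HLA-C was at 454, 553 and 455 FPKM in HCC70 K18+, K18+K14+ and K18+Vim+. Its MDA-MB-468 levels were 199 and 293 FPKM, and 132 FPKM in the one labelled K18+Vim+. Groups did not overlap, but the fitted difference of -1.29 ± 0.38 did not pass (SE, limma adjusted p = 0.0699), nor did -1.05 ± 0.48 without that library (adjusted p = 0.126). HLA-E was at 60.5, 68.4 and 45.4 FPKM for HCC70 and at 34.5, 44.2 and 13.8 FPKM in MDA-MB-468, in the same order of populations. The lowest HCC70 value was only 1.03 times the highest MDA-MB-468 value, and the fitted difference of -1.02 ± 0.35 did not pass (SE, limma adjusted p = 0.103; without the library that stood apart -0.71 ± 0.37, adjusted p = 0.170).

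TAP2, the transporter subunit in the table, was lower in MDA-MB-468. It was at 88.7, 98.4 and 66.9 FPKM in HCC70 K18+, K18+K14+ and K18+Vim+. In MDA-MB-468 K18+ it was at 36.8 FPKM, against 7.25 FPKM in K18+K14+ and 6.58 FPKM in the one labelled K18+Vim+. The lines did not overlap, and the fitted difference was -2.67 ± 0.50 (SE, limma adjusted p = 0.0275) with all libraries and -2.42 ± 0.51 (adjusted p = 0.00574) without the library that stood apart. In the GENCODE transcripts, 2034 of the 5654 windows of 31 bases of TAP2 also occur in other genes, mainly a readthrough transcript. The share of such windows was 15.6% for HLA-B, 20.1% for HLA-C and 11.5% for HLA-E, mostly with other heavy chains, 19.0% for the 16059-base transcript taken for CIITA, and 0 for B2M, CD74 and HLA-DRA. How reads that match several genes were assigned is not given in the sources used here, so the values of the heavy chains, TAP2 and CIITA are uncertain to that extent.

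The balance among the class I chains of the list also differed between the lines. The ratio of HLA-B to HLA-C was 2.89, 2.30 and 2.26 in HCC70 K18+, K18+K14+ and K18+Vim+. In MDA-MB-468 it was 0.850 in K18+, 1.20 in K18+K14+ and 0.519 where the label is K18+Vim+. These ranges did not overlap, with or without the library that stood apart, and alleles of these genes that differ from the reference can lose reads, which was not tested. HLA-B made up 67.1% to 71.8% of the summed FPKM of HLA-B, HLA-C and HLA-E in HCC70 and 32.0% to 51.1% in MDA-MB-468. B2M relative to that sum was 1.60 to 2.51 in HCC70, 1.89 in MDA-MB-468 K18+, 0.929 in MDA-MB-468 K18+K14+ and 1.75 in the MDA-MB-468 library labelled K18+Vim+, so this ratio overlapped between the lines.

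**Figure D2:**
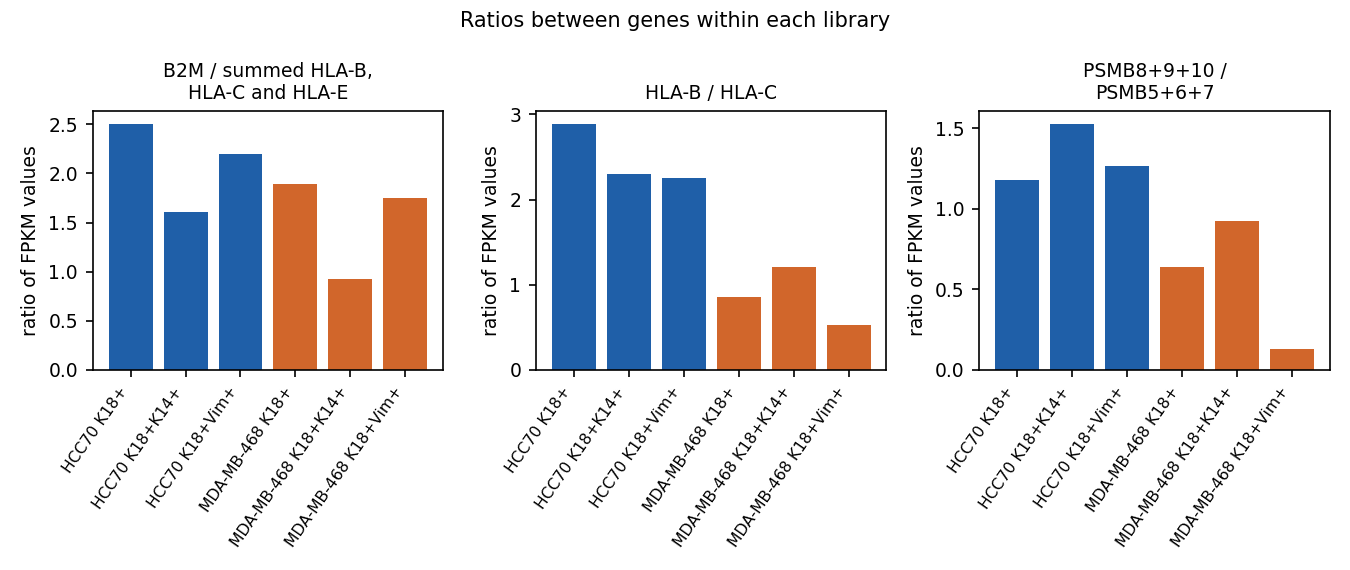
Ratios of FPKM values within each library for class I chains and proteasome subunits, 1 bar per library. HLA-B over HLA-C separates the lines (2.26 to 2.89 in HCC70 and 0.519 to 1.20 in MDA-MB-468), while the immunoproteasome ratio is lowest, at 0.125, in the MDA-MB-468 library labelled K18+Vim+.

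The 3 class II genes of the list were all lower in MDA-MB-468 than in HCC70. CIITA, the coactivator on which class II transcription depends, was at 5.97, 4.30 and 10.4 FPKM in HCC70 K18+, K18+K14+ and K18+Vim+. In MDA-MB-468 it was at 0.891, 0.878 and 0.775 FPKM, the last in the library labelled K18+Vim+. The means of 6.88 ± 3.14 and 0.848 ± 0.0636 FPKM (SD, n = 3) differed 8.12-fold, and the fitted difference was -2.02 ± 0.37 (SE, limma adjusted p = 0.0259) or -1.69 ± 0.34 (adjusted p = 0.00454) without the library that stood apart.

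CD74, the invariant chain, had the largest difference of the genes on the list. It was at 195, 87.8 and 267 FPKM in HCC70 K18+, K18+K14+ and K18+Vim+. In MDA-MB-468 it was at 0.477 and 1.53 FPKM, and at 0.511 FPKM in the library labelled K18+Vim+. The lowest HCC70 library was far above every MDA-MB-468 library, with a ratio of means of 218 and a fitted difference of -6.55 ± 0.50 (SE, limma adjusted p = 0.00289). Without the library that stood apart the difference was -6.09 ± 0.45 (adjusted p = 8.27e-06).

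HLA-DRA, the alpha chain of HLA-DR, was at 19.5, 3.18 and 24.7 FPKM in HCC70 K18+, K18+K14+ and K18+Vim+. It was listed at the floor in MDA-MB-468 K18+ and K18+K14+ and at 0.187 FPKM in the library labelled K18+Vim+, so no fold is given against these. The fitted difference, which depends on the pseudocount, was -3.53 ± 0.55 (SE, limma adjusted p = 0.0179) and -3.07 ± 0.48 (adjusted p = 0.00117) without the library that stood apart.

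In this line comparison, 6 of the 8 genes tested (B2M, HLA-B, TAP2, CD74, HLA-DRA and CIITA) were lower in MDA-MB-468 and 0 were higher. Of these, CD74, HLA-DRA and CIITA reached the mean of 1 FPKM needed for testing only through HCC70, with MDA-MB-468 means of 0.838, 0.129 and 0.848 FPKM. A gene admitted this way can only be lower in MDA-MB-468, which its call and the median below do not allow for. Over all 12454 genes tested, 7.68% were lower and 4.54% higher. The list was chosen with earlier results of these data known, so these shares are no test of it. Without the MDA-MB-468 library labelled K18+Vim+ the same 6 genes passed, against 16.8% of genes lower and 12.4% higher. Every HCC70 library was above every MDA-MB-468 library for all 8 genes, as it was for 21% of all genes tested. The median difference was -2.66 for the 8 genes and 0.01 for all genes, or -2.41 and -0.06 without that library. With no filter on low values 0 of the 8 passed, as did 0 genes of the whole table. When 1 of the 4 K18+ or K18+K14+ libraries was left out, 3 or 4 of the 8 passed: B2M, TAP2 and CD74 without either K18+ library, HLA-B, CD74 and HLA-DRA without HCC70 K18+K14+, and those 3 with B2M without MDA-MB-468 K18+K14+.

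**Figure D3:**
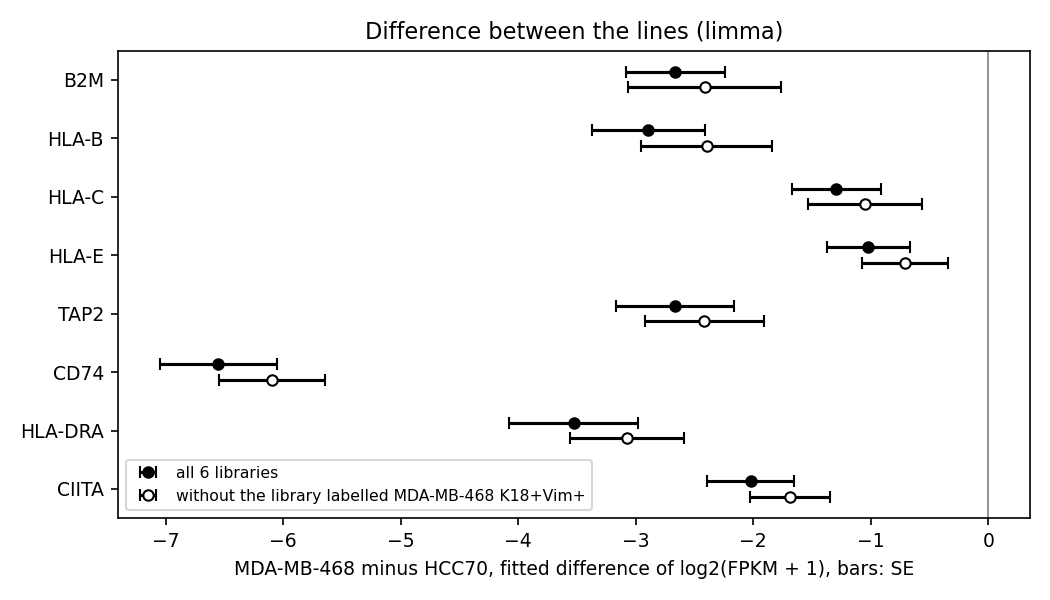
Fitted differences of log2(FPKM + 1), MDA-MB-468 minus HCC70, with SE bars, for the 8 genes, with all 6 libraries (filled) and without the MDA-MB-468 library labelled K18+Vim+ (open). CD74 lies furthest to the left at -6.55, and HLA-E nearest to 0 at -1.02.

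Within HCC70, CIITA, CD74 and HLA-DRA were lowest in the K18+K14+ library. HLA-DRA was 6.15-fold lower in HCC70 K18+K14+ than in HCC70 K18+, CD74 2.22-fold lower and CIITA 1.39-fold lower. Against HCC70 K18+K14+, HCC70 K18+Vim+ was 7.78-fold higher for HLA-DRA, 3.04-fold for CD74 and 2.42-fold for CIITA. The beta chain HLA-DRB1 followed the same order, at 18.2, 5.18 and 24.8 FPKM in K18+, K18+K14+ and K18+Vim+, and so did HLA-DQB1, at 13.7, 4.22 and 15.9 FPKM. With 1 library per population these folds have no replicate check. On the log2(FPKM + 1) scale, 2 of the 8 genes (CD74 and HLA-DRA) were at least 1 lower in HCC70 K18+K14+ than in HCC70 K18+, as were 5 of the 8 other class II chains tested and 2.33% of all genes. At least 1 higher in HCC70 K18+Vim+ than in HCC70 K18+K14+ were 3 of the 8 genes (CD74, HLA-DRA and CIITA), 6 of the 8 other class II chains and 3% of all genes. None of the 5 class I genes of the list reached that size in either contrast. The ratio of CD74 to HLA-DRA was 9.95 in HCC70 K18+, 27.6 in K18+K14+ and 10.8 in K18+Vim+, highest where both genes were lowest. CD14 ran the other way in these libraries, at 90.0, 138 and 51.4 FPKM, and so did FCER1G, at 0.606, 1.09 and 0.496 FPKM. CSF1R had the same order as CD74, at 0.223, 0.109 and 0.775 FPKM. PTPRC, the common leukocyte antigen, was also lowest in K18+K14+, at 0.788, 0.626 and 0.739 FPKM. The part of cells with these markers was not tested.

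**Figure D4:**
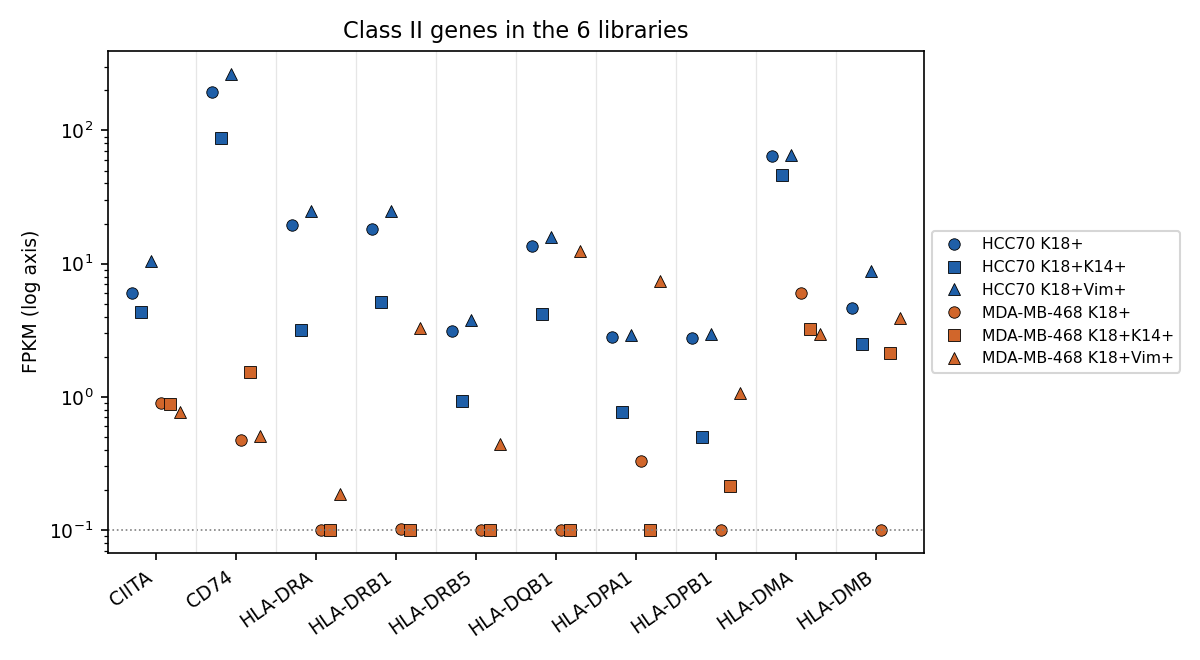
FPKM on a log axis of CIITA, CD74, HLA-DRA and other class II chains in the 6 libraries. The HCC70 K18+K14+ point is the lowest of the 3 HCC70 points for CIITA, CD74, HLA-DRA, HLA-DRB1 and HLA-DQB1, and HLA-DQB1, HLA-DRB1 and HLA-DPA1 lie well above the floor in the MDA-MB-468 library labelled K18+Vim+.

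In MDA-MB-468 the populations did not repeat this order. The 7 class II chains HLA-DRA, HLA-DRB1, HLA-DRB5, HLA-DQA1, HLA-DQB1, HLA-DPA1 and HLA-DPB1 summed to 1.47 FPKM in K18+ and 1.61 FPKM in K18+K14+, with 4 and 5 of the 7 at the floor. The MDA-MB-468 library labelled K18+Vim+ had a sum of 25.0 FPKM, from HLA-DQB1 at 12.5 FPKM, HLA-DPA1 at 7.37 FPKM and HLA-DRB1 at 3.26 FPKM. In HCC70 the sums were 60.2, 14.9 and 75.1 FPKM. In that library HLA-DRA, CD74 and CIITA were at 0.187, 0.511 and 0.775 FPKM. The matching MDA-MB-468 K18+ levels were 0.1, 0.477 and 0.891 FPKM. Of the 7 chains, HLA-DQA1 ran the other way, at the floor in all 3 HCC70 libraries and at 0.642, 0.893 and 0.205 FPKM in MDA-MB-468. Outside the 7, so did HLA-DOA, at 0.158 to 0.335 FPKM in HCC70 and 0.389 to 1.05 FPKM in MDA-MB-468. HLA-DOB did so narrowly, at 0.68 to 1.443 and 1.445 to 1.72 FPKM. Loss of reads from alleles that differ from the reference was not tested for these genes either.

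No gene of the table passed in any comparison of populations over both lines, and so none of the 8 did. The share called was 0% in K18+K14+ against K18+, in K18+Vim+ against K18+ and in K18+Vim+ against K18+K14+, while 428, 532 and 680 of the 12454 genes had an unadjusted limma p under 0.05. Among the 8 genes, 1 was below that unadjusted level in 1 comparison, HLA-E in K18+Vim+ against K18+K14+ (-1.09 ± 0.43, SE, limma adjusted p = 0.682). Without the library that stood apart it was -0.62 ± 0.48 (adjusted p = 0.9999). The comparisons share libraries, so their values are given side by side and not correlated.

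In K18+K14+ against K18+, HLA-C and HLA-E were higher in both lines, as were 20.2% of all genes. B2M and CIITA were lower in both, as were 43.7%. For CIITA the MDA-MB-468 levels were 0.878 and 0.891 FPKM, so its direction there carries little. HLA-C was 1.22-fold higher in HCC70 and 1.47-fold higher in MDA-MB-468. HLA-B was 2.08-fold higher in MDA-MB-468 K18+K14+ than in MDA-MB-468 K18+ and 1.03-fold lower in HCC70. TAP2 was 5.08-fold lower in MDA-MB-468 K18+K14+ and 1.11-fold higher in HCC70 K18+K14+, so heavy chain and transporter moved apart in MDA-MB-468. In that line 24.7% of genes differed by at least 1 on the log2(FPKM + 1) scale between these libraries, against 3.10% in HCC70. The log2 ratio of K18+K14+ to K18+ fell with transcript length across genes (Spearman rho -0.324 in MDA-MB-468 and -0.246 in HCC70, over 12031 genes, which are not independent), and the TAP2 transcript of 5684 bases is longer than those of HLA-B (1547 bases) and HLA-C (1554 bases). The part of length in these values was not tested.

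In K18+Vim+ against K18+, B2M, HLA-B, HLA-E and TAP2 were lower in both lines, as were 33.9% of all genes, and CD74 and HLA-DRA were higher in both, as were 16.5%. In HCC70, B2M was 1.36-fold lower, HLA-B 1.28-fold, HLA-E 1.33-fold and TAP2 1.32-fold. The MDA-MB-468 library labelled K18+Vim+ was lower than MDA-MB-468 K18+ by 2.03-fold for B2M, 2.47-fold for HLA-B, 2.5-fold for HLA-E and 5.60-fold for TAP2. The 2 higher genes had MDA-MB-468 levels near the floor, so their direction there carries little. The largest fitted difference was that of TAP2, -1.36 ± 0.62 (SE, limma adjusted p = 0.863), and without the library that stood apart it was -0.99 ± 0.67 (adjusted p = 0.886).

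In K18+Vim+ against K18+K14+, HLA-B, HLA-C, HLA-E and TAP2 were lower in both lines, as were 23.7% of all genes. HLA-DRA was higher in both, as were 25.6%. In MDA-MB-468 it was at 0.187 FPKM against the floor of 0.1 FPKM, so its direction there carries little. HLA-E was 1.51-fold lower in HCC70 K18+Vim+ and 3.19-fold lower in the MDA-MB-468 library labelled K18+Vim+. HLA-B was 1.24-fold lower in the first and 5.13-fold lower in the second. The fitted difference of HLA-B was -1.32 ± 0.59 (SE, limma adjusted p = 0.682) and moved to -0.58 ± 0.74 (adjusted p = 0.9999) without the library that stood apart. That of HLA-DRA was 1.37 ± 0.67 (adjusted p = 0.682) and 2.05 ± 0.64 (adjusted p = 0.551).

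Beyond the list, the rest of the pathway was read from 8 further lists, also chosen with earlier results of these data known. Their counts stand beside 7.68% of all genes lower and 4.54% higher in MDA-MB-468 with all libraries, and 16.8% and 12.4% without the library that stood apart, so 1 gene in a list of this size is near the background. Of 7 other class I and class I-like chains tested, 0 passed between the lines. Of 8 genes of peptide loading and trimming, TAPBPL, a tapasin-like peptide editor, was lower in MDA-MB-468 (-2.90 ± 0.57, SE, limma adjusted p = 0.0303) and the other 7 did not pass. Without the library that stood apart TAPBPL was at -2.03 (adjusted p = 0.00257), and ERAP1, a peptide-trimming protease, passed in the opposite direction (1.62 ± 0.34, adjusted p = 0.006). TAPBPL was at 62.2, 59.5 and 70.1 FPKM for HCC70 and at 11.4, 17.3 and 1.90 FPKM in MDA-MB-468, without overlap. The 5 immunoproteasome genes did not pass. PSMB8, a catalytic subunit induced by interferon gamma, was at 95.9, 136 and 89.9 FPKM in HCC70 and 82.8 and 197 FPKM in MDA-MB-468 K18+ and K18+K14+, and at 4.72 FPKM in the MDA-MB-468 library labelled K18+Vim+. PSMB9, another such subunit, was at 40.9 to 61.6 FPKM in HCC70, 21.3 and 37.1 FPKM in MDA-MB-468 K18+ and K18+K14+ and 2.58 FPKM in that library. In the other 2 MDA-MB-468 libraries PSMB8 thus lay just below and above the HCC70 range. PSMB9 lay below its HCC70 range in both, and B2M and HLA-B lay well below theirs.

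Of 8 constitutive proteasome genes, 2 subunits of the outer ring were higher in MDA-MB-468: PSMA1 (1.52 ± 0.38, SE, limma adjusted p = 0.0484) and PSMA3 (1.76 ± 0.42, adjusted p = 0.0439). Both passed without the library that stood apart (1.27, adjusted p = 0.0401, and 1.85, adjusted p = 0.0197). The list had a median difference of 0.92. Of 8 other class II chains tested, HLA-DRB1 (-3.07 ± 0.42, SE, limma adjusted p = 0.0141) and HLA-DMA (-3.60 ± 0.33, adjusted p = 0.00473) were lower in MDA-MB-468. HLA-DMA, a chain of the HLA-DM peptide exchanger, was at 46.6 to 65.7 FPKM in HCC70 and 2.98 to 5.98 FPKM in MDA-MB-468. HLA-DRB1, HLA-DRB5 and HLA-DQB1 were at 0.1 or 0.101 FPKM in MDA-MB-468 K18+ and K18+K14+. In the fit without the library that stood apart they were therefore tested only through HCC70. Without the library that stood apart HLA-DRB1 (-3.31, adjusted p = 0.000297) and HLA-DMA (-3.36, adjusted p = 7.6e-05) passed, and HLA-DRB5 (-1.36, adjusted p = 0.0265) and HLA-DQB1 (-2.99, adjusted p = 0.00048) also passed. Of 6 endosomal processing genes, CTSS, the protease that trims the invariant chain, was lower (-1.75 ± 0.31, adjusted p = 0.0241; -1.57, adjusted p = 0.00537 without that library), and CTSL, another endosomal protease, passed as lower without it (-2.17, adjusted p = 0.000988).

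Of 12 factors that act on MHC promoters, 0 passed between the lines with all 6 libraries. NLRC5, the coactivator of class I genes, was at 22.7, 25.2 and 29.5 FPKM in HCC70 and 18.9 and 32.4 FPKM in MDA-MB-468 K18+ and K18+K14+, and at 4.18 FPKM in the MDA-MB-468 library labelled K18+Vim+. Its fitted difference of -0.82 ± 0.57 (limma adjusted p = 0.352) became 0.05 ± 0.36 (adjusted p = 0.934) without that library. The class I coactivator therefore overlapped between the lines where the class II coactivator CIITA did not, and the difference between the 2 genes was not tested. RFX5, which binds the X box, passed without that library and not with it (-1.25 ± 0.34, adjusted p = 0.0191). Of 10 interferon gamma signalling genes, JAK1, a kinase of the receptor, was lower in MDA-MB-468 (-1.46 ± 0.31, adjusted p = 0.0342), at 25.1 to 39.7 FPKM in HCC70 and 7.16 to 15.3 FPKM in MDA-MB-468. Without that library JAK1 was at -1.53 (adjusted p = 0.00808), and JAK2, the partner kinase, also passed as lower (-1.83, adjusted p = 0.00574). In the 3 comparisons of populations with all 6 libraries, 0 genes of these 8 lists passed.

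**Figure D5:**
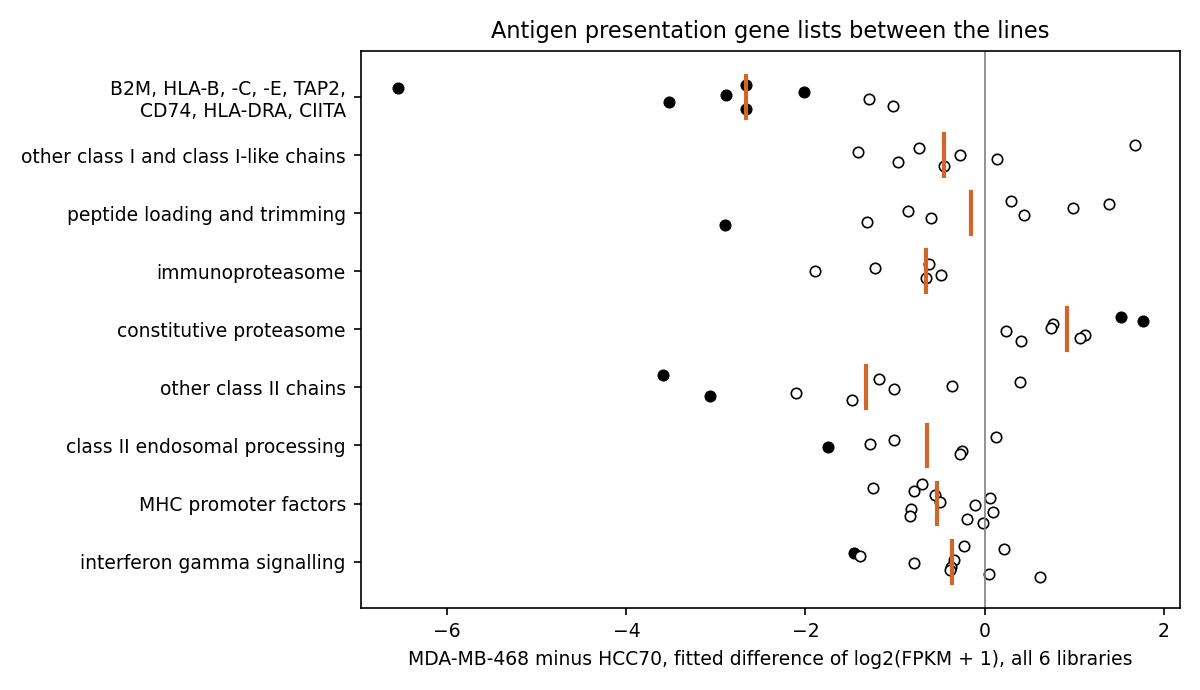
Fitted line differences of log2(FPKM + 1) for each tested gene of the 8 genes and of 8 further pathway lists, with all 6 libraries. Filled points passed, open points did not, and bars mark list medians, from -2.66 for the 8 genes to 0.92 for the constitutive proteasome.

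The genes with the most similar profiles were sought by Pearson correlation over the 6 libraries with the mean standardised profile of the class I and of the class II genes. For the 5 class I genes these were RIN3 (0.997), SLC12A9 (0.997), ANKRD11 (0.996), TRIP6 (0.996) and AIFM3 (0.996). RIN3, for example, was at 14.5 to 16.4 FPKM in HCC70 and 1.92 to 5.47 FPKM in MDA-MB-468. For the 3 class II genes they were SCNN1B (0.995), MXRA5 (0.994), UBXN10 (0.994), MUC4 (0.994) and COXFA4L3 (0.994). MUC4, a membrane mucin, was at 8.62, 3.81 and 17.0 FPKM in HCC70 K18+, K18+K14+ and K18+Vim+ and at 0.1 to 0.354 FPKM in MDA-MB-468, the same order as CD74 in HCC70. These 10 genes were picked by their correlation over all 6 libraries, so a subset of these libraries gives no separate check. Over the 5 libraries without the one that stood apart, the same 10 genes correlated at 0.984 to 0.997. Such values are common over 6 libraries of 2 lines: 344 genes reached 0.95 with the class I profile and 225 with the class II profile.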

How the data were processed

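The members of the list and the pathway lists were chosen with earlier results of these data known. Reads were aligned with TopHat2 to GRCh37, per the submitters' processing notes. Its version is not given in the sources used here, nor are the annotation and the counting tool. The authors' deposited values are FPKM for each Entrez Gene ID, with a floor of 0.1 and a ceiling of 10000 visible in its values. Of 18807 rows, 7 had a blank and were dropped, and for 5 IDs with more than 1 row only the one of highest mean stayed. RefSeq named 18731 of the 18795 genes.

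Libraries were grouped by the populations and lines in the labels. The 12454 genes whose mean reached 1 FPKM were taken as log2(FPKM + 1), which understates changes of low genes. The model was fitted in limma 3.58.1 (R 4.3.3) by eBayes with trend, with population and line as terms, leaving 2 residual degrees of freedom. By the labels, the line pairs the populations. Adjustment was by Benjamini-Hochberg over all genes of a comparison at 0.05, and all adjusted p-values printed are from limma. A fit without 1 library has 1 residual degree of freedom, and the lone K18+Vim+ library is then assumed to vary like the others. The procedure was also run on simulated data with known changes and independent normal noise. Those data held no floor and no library that stood apart, so the run does not cover these. Named genes were all members, sort antigens, line identity genes, those of each list that passed (at most 4), otherwise up to 3 with the largest differences or same-sign ratios, and the 5 most similar profiles. NLRC5, PSMB8, PSMB9, CD14, CD68, FCER1G, PTPRC, CSF1R, ITGAM, TYROBP, CD1C, HLA-DQB1, HLA-DPA1, HLA-DOA, HLA-DOB and MUC4 were singled out after their values were seen where that rule does not name them. Shared 31-base windows and lengths come from GENCODE 29 transcripts. Alternatives were no replicate block (no line term, or no population term between the lines), pseudocounts of 0.1 and 5, no filter, quantile normalization, no trend, each library left out, and only the 4 K18+ and K18+K14+ libraries for the lines. The similar profiles were also computed without the MDA-MB-468 library labelled K18+Vim+, an alternative chosen after seeing the data.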

Additional observations from a re-analysis of the deposited data

How the results depend on the processing

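The number of genes past the threshold between the lines was 1522 with all libraries, 0 with no filter on low values (3993 at an unadjusted limma p under 0.05) and 3688 with only the 4 K18+ and K18+K14+ libraries, and it ranged from 231 to 3565 when each library was left out. The members' line difference was negative under all 13 alternatives. Every HCC70 library was above every MDA-MB-468 library for these genes, so leaving libraries out could not change that sign. The fits without either K18+Vim+ library and with only the 4 K18+ and K18+K14+ libraries gave the same difference (-2.41 for B2M). The alternatives are therefore not independent of each other. CD74 passed in 12, B2M in 11, HLA-B, HLA-DRA and TAP2 in 10, CIITA in 8, HLA-C in 1 (quantile normalization, -1.68) and HLA-E in 0. The fits with no replicate block dropped the line term for the populations and the population term for the lines, gave 1875 genes between the lines and changed no call of a member. In the population comparisons leaving out each library gave 0 to 1 genes for K18+K14+ against K18+, 0 to 1488 for K18+Vim+ against K18+ and 0 to 1947 for K18+Vim+ against K18+K14+, the last 2 highest counts being without HCC70 K18+Vim+. Member differences that changed sign with a library left out were, for K18+K14+ against K18+, HLA-B (-0.28 to 1.29), HLA-E (-0.040 to 0.56), TAP2 (-2.09 to 0.042), CD74 (-1.24 to 0.88), HLA-DRA (-2.35 to 0.053) and CIITA (-0.60 to 0.19). CD74 was 0.17 with a pseudocount of 0.1 and CIITA 0.073 with quantile normalization. For K18+Vim+ against K18+ they were HLA-C (-0.66 to 0.072), CD74 (-0.45 to 0.93), HLA-DRA (-0.46 to 0.90) and CIITA (-0.19 to 0.80). For K18+Vim+ against K18+K14+ they were B2M (-0.69 to 0.061, and 0.20 with quantile normalization), TAP2 (-1.03 to 0.36) and CD74 (-0.64 to 1.49), while HLA-E passed without HCC70 K18+Vim+ (-1.56, adjusted p = 0.0497). Fewer genes or libraries enter some of these fits, and the cause of the other changes was not tested. The depth is unknown, so levels near the floor of 0.1 FPKM have no counting interval.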
